A study of Mus musculus with 60 samples.

Results

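The 308 circular RNAs (circRNAs) that the authors' deposited table lists for mouse spleen were examined in spleens with and without Ftsj1 deficiency. All rows of the spleen table were taken as members, and they are 308 of 4724 rows in the 5 organ tables, which hold 2799 different circRNAs. The 2 groups were spleens of 3 male mice of genotype Ftsj1_DF and of 3 male wild-type mice (WT), all 4 months old. Each library was sequenced in 2 runs because the first run gave few reads, which makes 12 of the 60 samples of the series. Per the labels, 4 of the mice are brothers, 2 of each genotype, and the remaining 2 mice are brothers of each other, 1 of each genotype. How the Ftsj1-deficient allele was made, and in which cells it acts, is not stated in the labels.

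A circRNA is a closed ring that arises when the spliceosome joins the end of an exon to the start of the same or an earlier exon. It is recognised by reads across this back-splice junction, and it has no free end for exonucleases such as RNase R to attack. Ftsj1 is an X-linked gene that encodes a 2'-O-methyltransferase of tRNA. The spleen filters blood and houses B cells, T cells, macrophages and, in mice, red cell precursors, so a whole-spleen library mixes the circRNAs of many cell types. In such bulk tissue, fewer cells of a type and less of a circRNA per cell cannot be told apart. The tables hold no gene names and no linear RNA, so the spleen label was not checked against marker genes and no host gene is given. Each circRNA is therefore named by the GRCm39 positions of its 2 ends, as the authors' deposited table has them.

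The spleen table was the shortest of the 5, against 664 to 1856 circRNAs in the other organs. Each row gives 1 mean normalized count over the libraries of both genotypes, which is the measure of abundance below. Values of single libraries were not analysed here, so no SD between mice can be given and the depth behind each value is unknown. The error of each log2 fold change is the standard error (SE) in the authors' deposited table. The numerator genotype is not stated either, so each sign is given as deposited, without naming the genotype with the higher level.

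Spleen circRNAs were mostly of low abundance, with a few that dominated. In the authors' deposited table the mean normalized count had a median of 3.32, with quartiles at 1.68 and 6.53, and ran from 0.602 to 199.5. A mean of at least 10 was reached by 46 circRNAs, at least 20 by 16 and at least 50 by 4, while 25 had a mean under 1. The first circRNA alone held 9.33% of the summed mean of 2139, the first 3 held 19.9%, the first 10 held 32.7% and the first 50 held 61.3%. Abundance was thus carried by 30 circRNAs for 50% of the sum and by 175 for 90%. In the other 4 organs the 10 most abundant held a smaller share, 12.8% in brain, 12.9% in kidney, 18.1% in heart and 18.8% in liver. The first circRNA alone held 2.16% to 4.00% there, against 9.33% in spleen. Those tables are longer, so 10 circRNAs are a smaller part of them and these shares are not on 1 scale. Among the 95 spleen circRNAs with a mean of at least 5, the first 10 held 43.2%. How much of the gap between organs goes with table length was not tested. As a share of their own table the circRNAs that make 50% of the sum were close, 9.74% in spleen and 8.78% to 11.8% elsewhere.

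**Figure D1:**
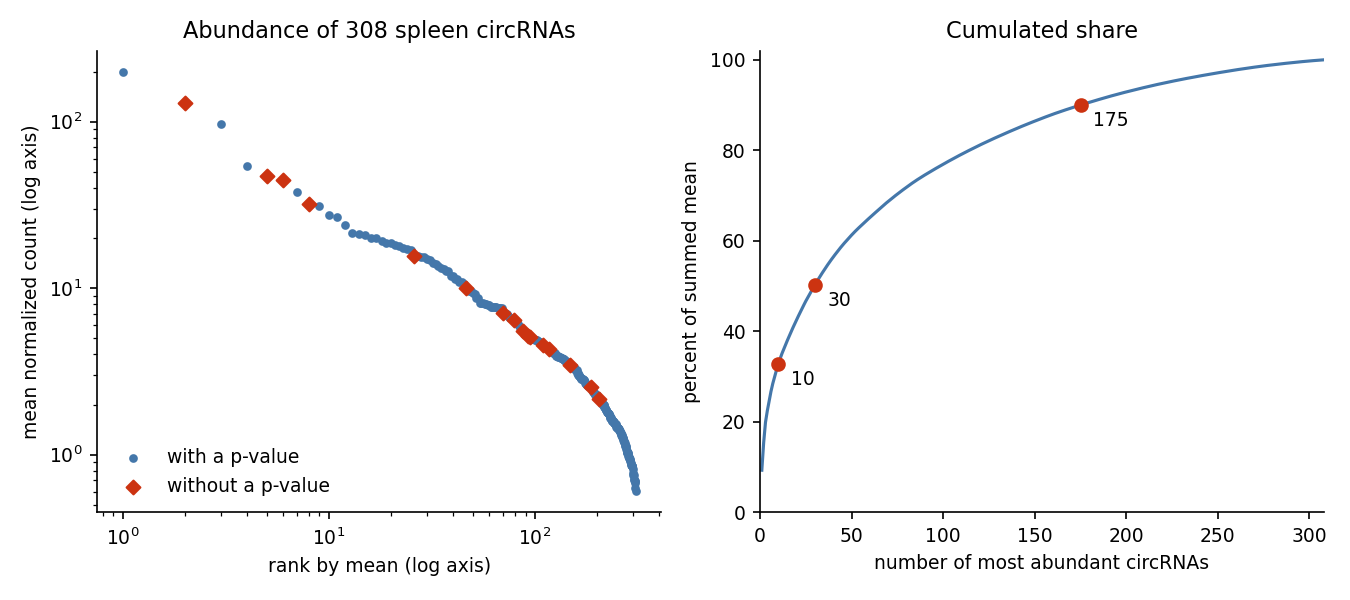
Left, mean normalized count of each of the 308 spleen circRNAs against its rank, both axes logarithmic, with the 16 circRNAs that have no p-value as diamonds. Right, percent of the summed mean held by the most abundant circRNAs, with points at 10, 30 and 175 circRNAs (32.7%, 50% and 90% of the sum). 4 of the 10 most abundant circRNAs are diamonds.

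The leading circRNA, chr11:11650205-11657904, spanned 7700 bases and had, per the authors' deposited table, a mean normalized count of 199.5. That was 1.54 times the second circRNA and 60.2 times the median of the table. Its log2 fold change between genotypes was 0.97 (SE 1.53), with a 95% interval from -2.02 to 3.96. In the brain table this circRNA was number 3 by abundance, with a mean of 243.2, and there it had a log2 fold change of 9.73 (SE 2.21) and no p-value. The spleen estimate minus the brain estimate was -8.76 log2 units (SE 2.68), with an unadjusted p of 0.00111 and an adjusted p of 0.941 over all pairs of spleen with another organ (normal test of the difference between DESeq2 estimates).

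The second was chr1:87291826-87307730, which the authors' deposited table gives a mean of 129.7 and a log2 fold change of -2.72 (SE 1.38) but no p-value. The third, chr5:118731398-118731635, was a span of only 238 bases with a mean of 96.6 and a log2 fold change of -1.59 (SE 1.39). The fourth, chr2:70600348-70617339, had a mean of 54.5 and the smallest SE of the spleen table, with a log2 fold change of -0.27 (SE 1.17). Its interval, from -2.55 to 2.02, was the narrowest of all spleen circRNAs and still allowed a difference of several-fold in either direction. Next came chr3:51215471-51233456 with a mean of 47.0, chr1:178150699-178152878 with 44.5 and chr2:92044394-92061069 with 37.6. The first 10 closed with chr10:13879945-13942428 at 31.8, chr6:88332465-88335624 at 31.2 and chr7:113657775-113659654 at 27.5 in the authors' deposited table. All of these 10 circRNAs were also listed in the other 4 organs.

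The distance between the 2 ends of a circRNA, its genomic span, includes introns and is not the length of the mature ring. The median span in spleen was 3749 bases, with quartiles at 1262 and 10245 bases. In the other organs the median span was 4182 bases in liver, 4964 in heart, 6060 in kidney and 6092 in brain. Of the 308 spans 66 were under 1000 bases, 82 were at least 10000 and 6 were at least 50000. The widest was chr13:45948985-46110051 with 161067 bases, and it ranked 11th in abundance with a mean of 26.7. A second circRNA, chr13:46005804-46110051, shared its right end, spanned 104248 bases and had a mean of 17.5. The narrowest was chr13:42208876-42209018 with 143 bases and, per the authors' deposited table, a mean of 1.60.

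Median span differed little between abundance groups. From the lowest to the highest of 4 groups of 77 circRNAs by mean, the median span was 3725, 3470, 3643 and 4536 bases. It was shorter, 2197 bases, for the 31 circRNAs of the spleen table alone, where 3 of 31 spans reached 10000 bases, against 38 of 133 for the circRNAs of all 5 tables. Among the 16 circRNAs without a p-value, 12 spanned at least 10000 bases and the median was 12212 bases, against 70 of 292 and 3600 bases among those with one.

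**Figure D2:**
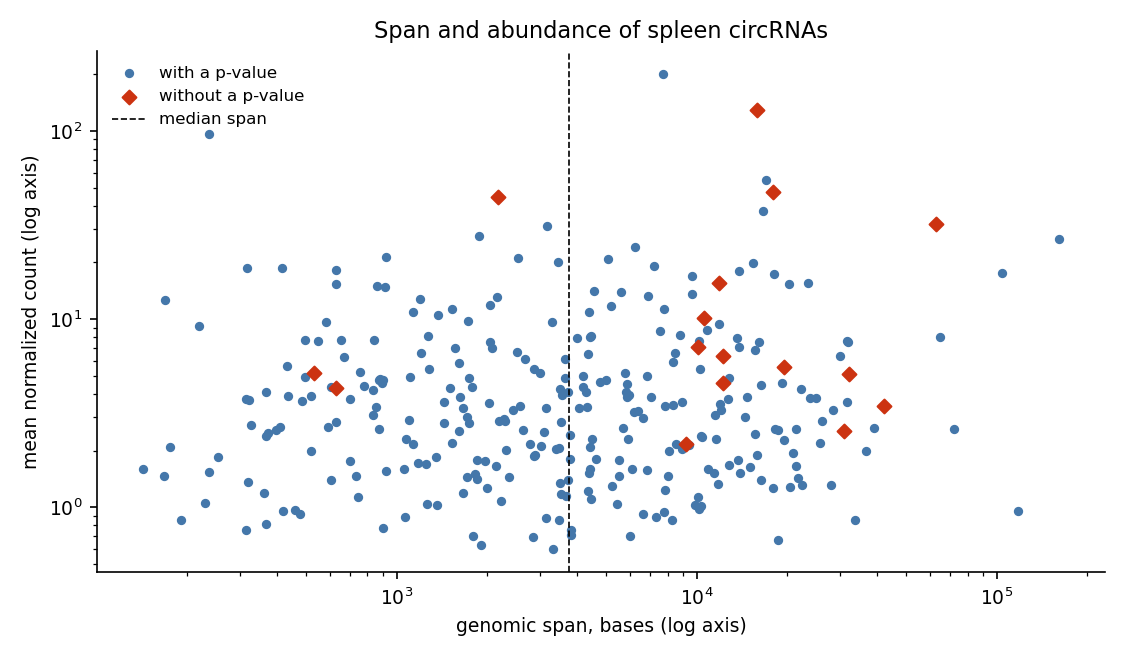
Mean normalized count against genomic span in bases for the 308 spleen circRNAs, both axes logarithmic; the dashed line is the median span of 3749 bases and diamonds are the 16 circRNAs without a p-value. Spans range from 143 to 161067 bases, and 12 of the 16 diamonds lie at 10000 bases or more.

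Overlapping spleen circRNAs were joined into 280 loci, of which 254 held 1 circRNA, 24 held 2 and 2 held 3. The 3 circRNAs of the locus on chromosome 19 shared a start, and chr19:6391933-6393206, chr19:6391933-6392816 and chr19:6391933-6392687 had means of 8.18, 4.79 and 5.24 in the authors' deposited table. Their log2 fold changes were -1.25 (SE 1.44), -1.15 (SE 1.58) and -1.71 (SE 1.56), with overlapping intervals. The locus on chromosome 10 held chr10:116353222-116385080 with a mean of 7.58, chr10:116353222-116385010 with 3.64 and chr10:116363732-116385080 with 2.60. There the log2 fold changes were -2.01 (SE 1.66), -1.01 (SE 1.88) and -0.35 (SE 1.75). In all, 50 circRNAs shared a start or an end with another, at 25 shared positions. At such a position the most abundant circRNA had a median of 2.77 times the mean of the next, with ratios from 1.34 to 12.8. Fold changes had 1 sign at 19 of the 25 positions in the authors' deposited table, and circRNAs that share an end are not independent of each other.

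The genotype comparison asked which spleen circRNAs differ when Ftsj1 is deficient. None of the 292 circRNAs with a p-value passed an adjusted p of 0.05 in the authors' DESeq2 test (0% of those tested), and every adjusted p was 0.998. At an unadjusted p below 0.05 there were 6 circRNAs, or 2.05% of those tested, where 14.6 would be the number by chance if the statistics followed the standard normal curve. Their spread was narrower, with an SD of 0.76, so that number may be too high. Of the 6, 4 had a positive sign (1.37%) and 2 a negative one (0.685%). This majority turned when every row was given the normal p of its statistic, with 4 positive and 5 negative, and when the statistics were divided by their SD, with 4 positive and 9 negative. The share was 2.05% in brain, 2.86% in heart, 1.82% in kidney and 9.06% in liver.

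The smallest p of the spleen table belonged to chr1:181653187-181659797, with a mean of 2.97, a log2 fold change of 5.18 (SE 1.90) and an unadjusted p of 0.00636 in the authors' DESeq2 test. In heart its log2 fold change was 0.70 (SE 1.06) and in kidney -0.81 (SE 1.43). Next was chr11:70765572-70775794, for which the authors' deposited table has a mean of 5.41, a log2 fold change of 4.41 (SE 1.86) and an unadjusted p of 0.0179. The same circRNA had in brain a mean of 29.7 and a log2 fold change of 4.63 (SE 2.26), and in kidney 3.26 (SE 1.46). These organs come from the same mice. Both further circRNAs with a positive sign, chr8:82795561-82798464 with 4.41 (SE 2.03) and chr5:142725168-142726019 with 4.14 (SE 2.11), were listed in the spleen table alone, at means of 1.90 and 3.42. On the negative side stood chr2:24703539-24715079, with a mean of 3.08 and a log2 fold change of -4.67 (SE 2.02). Elsewhere it had 3.02 (SE 1.77) in brain, -0.40 (SE 0.55) in heart, -0.05 (SE 0.99) in kidney and -0.16 (SE 0.67) in liver. The last was chr1:138967738-138969781, the most abundant of the 6 with a mean of 11.8, and its log2 fold change was -4.12 (SE 1.97). Elsewhere that circRNA had 0.84 (SE 1.16) in brain, -0.97 (SE 1.05) in heart and -0.02 (SE 1.67) in liver. For 3 of the 6, those on chromosomes 8 and 2 and the first on chromosome 1, the absolute log2 fold change exceeded the log2 of the mean by over 2.5, a limit set after the values were seen that no other spleen circRNA passed. Without these, 3 circRNAs remained at an unadjusted p below 0.05, and all 6 missed the adjusted threshold in the authors' DESeq2 test.

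**Figure D3:**
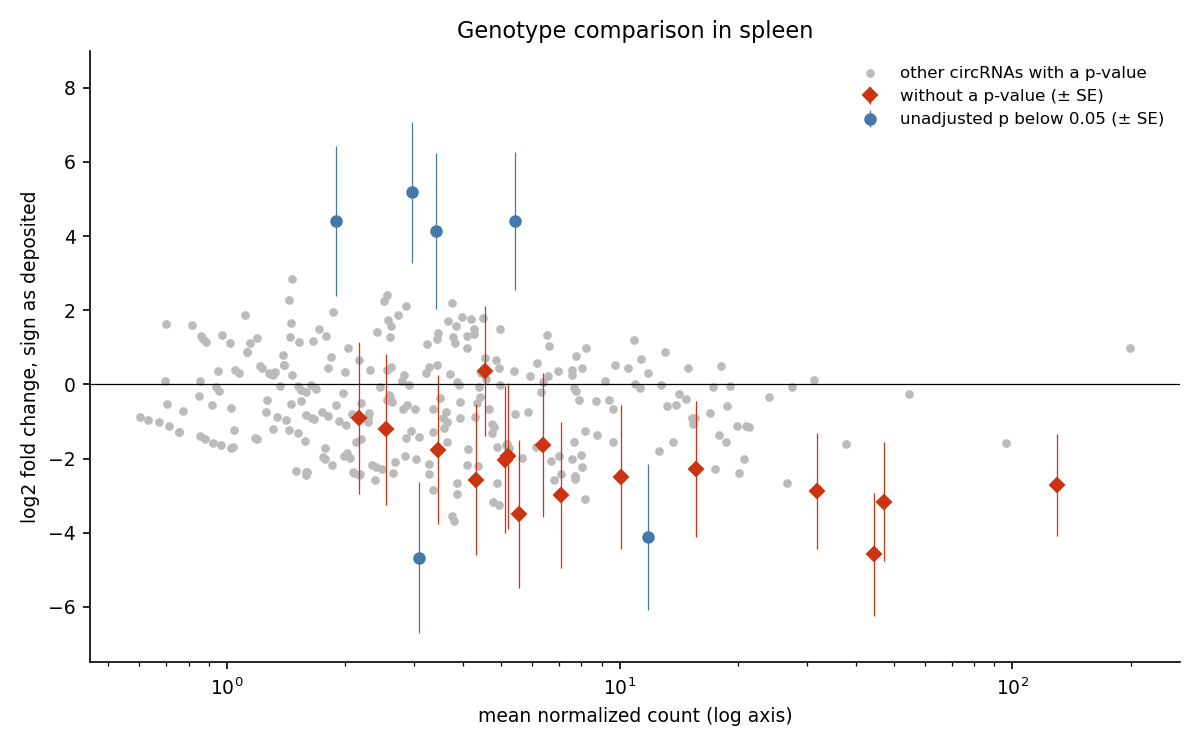
Deposited log2 fold change between genotypes, sign as deposited, against the mean normalized count (log axis) for the 308 spleen circRNAs; error bars are ± SE for the 6 circRNAs with an unadjusted p below 0.05 (circles) and the 16 without a p-value (diamonds). 15 of the 16 diamonds lie below 0, and no circRNA passed the adjusted threshold.

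The errors set what this comparison could show. The SE of the log2 fold change had a median of 1.95 and ran from 1.17 to 2.55 in the authors' deposited table. For a single circRNA to pass the adjusted threshold by itself, its p would have had to reach 0.000171, a Wald statistic of 3.76. That is a log2 fold change of 7.35 at the median SE, or 4.39 at the smallest. The largest statistic among those tested was 2.73. From the lowest to the highest abundance group the median SE fell from 2.22 over 2.03 and 1.78 to 1.52. At the median SE of its group, a 95% interval reached 4.35 log2 units to either side at low abundance and 2.98 at high abundance. On the circRNAs that spleen shared with another organ, the median SE was larger in spleen, 1.88 against 1.51 in brain, 1.82 against 0.89 in heart, 1.83 against 1.21 in kidney and 1.86 against 1.48 in liver.

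The table as a whole leaned to negative signs, which is a description without a test because all circRNAs come from the same libraries. Of the 308 log2 fold changes the authors' deposited table has 198 negative and 110 positive, with a median of -0.55 and quartiles at -1.59 and 0.43. Among the 20 most abundant circRNAs 18 were negative, with a median of -1.36. The 2 positive ones were the leading circRNA and chr6:88332465-88335624, with 0.97 (SE 1.53) and 0.12 (SE 1.42). By abundance group, from lowest to highest, the median was -0.18, -0.66, -0.50 and -0.76. Without the rows that have no p-value the share of positive signs was 37.3%, against 35.7% with them, and without the 20 most abundant it was 37.5%. On chromosome X, which carries Ftsj1, spleen had 2 circRNAs, chrX:138855656-138869348 with -2.01 (SE 2.27) and chrX:20028167-20028769 with 0.52 (SE 2.14).

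A p-value was missing for 16 circRNAs, 5.19% of the table but 15.2% of its summed mean. The share of such rows was 0.162% in brain, 0% in heart, 0.703% in kidney and 1.89% in liver. DESeq2 leaves out a p-value where a single count lies far from the others, and whether that was the reason here was not tested because no counts per library were analysed. Their median mean was 5.98, against 3.09 for the circRNAs with a p-value, and 4 of the 10 most abundant were among them. Of the 16 log2 fold changes 15 were negative, with a median of -2.39 against -0.46 for the tested circRNAs in the authors' deposited table.

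The abundant members of these 16 carried some of the most negative fold changes of the table. The largest was that of chr1:178150699-178152878, with -4.58 (SE 1.65) and a deposited statistic of -2.77, larger in size than any that was given a p. For chr3:51215471-51233456 the value was -3.16 (SE 1.61), for chr10:13879945-13942428 it was -2.88 (SE 1.57), and for chr7:81543547-81555384, with a mean of 15.6, it was -2.28 (SE 1.84). Further down, chr17:63778403-63797882 had a mean of 5.56 and -3.49 (SE 2.00), and chr4:53481464-53491530 a mean of 7.11 and -2.97 (SE 1.97) in the authors' deposited table. The single positive one was chr12:86303642-86315835, with a mean of 4.55 and 0.36 (SE 1.75). By the normal tail of their own statistic 3 of the 16 would fall below 0.05, those at ranks 2, 5 and 6 by abundance. Over all 308 rows 9 would do so, and 6 of the 292 circRNAs with a deposited p-value did. DESeq2 gave these 3 no p-value, so they do not count as passing that limit.

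All 16 stood in the brain table with a p-value, and there 8 of 16 were negative with a median of -0.04. In each of heart, kidney and liver 14 of the 16 were listed, with medians of 0.08, 0.19 and -0.38, and 7, 6 and 10 of the 14 were negative. Among these 58 entries 3 had an unadjusted p below 0.05 in the authors' DESeq2 test. Over all tested circRNAs the share was 2.05% in brain, 2.86% in heart, 1.82% in kidney and 9.06% in liver. In heart it was chr1:87291826-87307730 with -0.95 (SE 0.40). In liver they were chr4:117439797-117450359 with -3.94 (SE 1.63) and chr6:8537817-8579739 with -5.93 (SE 2.14), the latter at a liver mean of only 7.78. All 3 were negative, and the share of negative signs among all such circRNAs of heart and liver was not counted. The difference between spleen and the other organ was tested from both estimates and their SEs for the 58 pairs of these 16 circRNAs, as an alternative added after seeing the data. The spleen value was the lower in 51 of 58 pairs, by a median of -2.44, against 620 of 848 and -1.03 over all pairs. As 15 of the 16 were negative in spleen, with a median of -2.39, that count was largely set by the choice of rows. Of the 58 pairs, 5 had an unadjusted p below 0.05 in this normal test (2.95% over all 848 pairs). The pairs of chr1:178150699-178152878 with liver, heart, kidney and brain were among them, and all reuse its spleen estimate of -4.58 (SE 1.65). The remaining pair was chr3:51215471-51233456 with brain, so the 5 are not separate circRNAs. None of the 58 pairs (0%) passed an adjusted p of 0.05, with a smallest adjusted p of 0.999 in this normal test of DESeq2 estimates.

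The sign of the spleen fold change went with the number of organ tables that list the circRNA. Of the 31 circRNAs in the spleen table alone 24 were positive (77.4%), with a median log2 fold change of 1.14. The count was 20 of 39 for circRNAs in 2 tables, 13 of 38 for those in 3, 25 of 67 for those in 4 and 28 of 133 (21.1%) for those in all 5, the last with a median of -0.92. Abundance differed too, with a median mean of 1.52 in the spleen table alone and 5.42 in all 5 tables. Below the median abundance 20 of 26 circRNAs of spleen alone and 7 of 32 of all 5 tables were positive, and at or above it 4 of 5 and 21 of 101. The most abundant circRNA of spleen alone, chr1:38573987-38576027, was given a mean of 7.56 and a log2 fold change of 0.25 (SE 1.79) by the authors' deposited table. Behind it came chr14:78164610-78177375 at 4.89 with -1.69 (SE 2.24) and chr4:44691835-44697687 at 4.50 with 1.79 (SE 1.91).

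**Figure D4:**
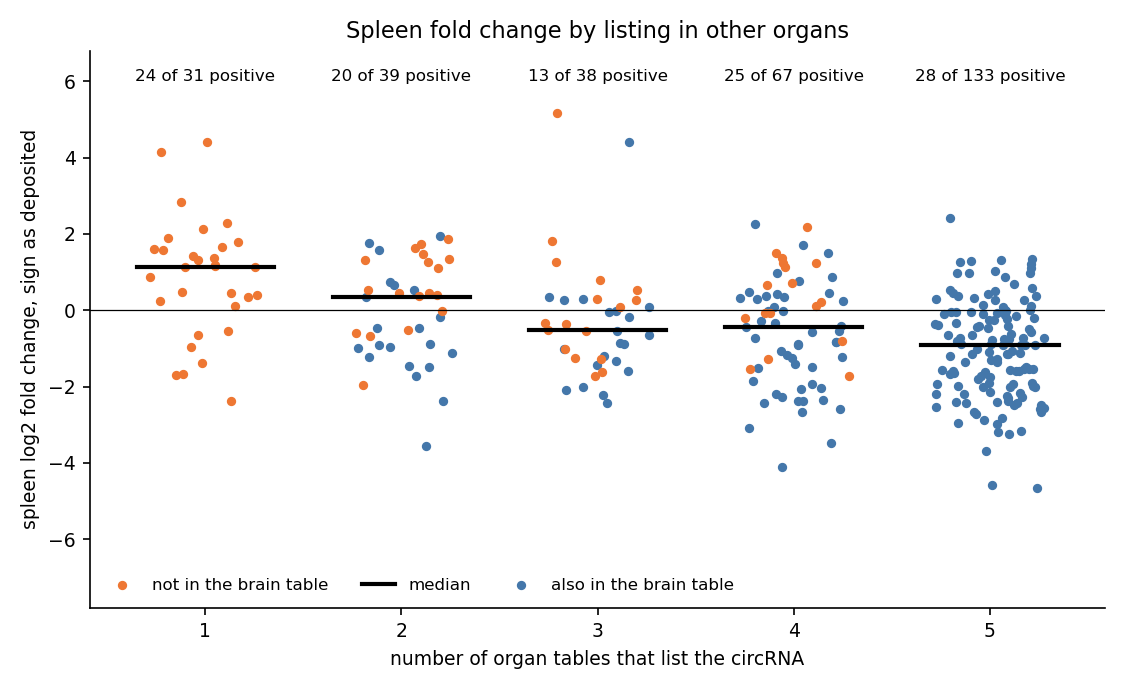
Spleen log2 fold change, sign as deposited, of the 308 circRNAs by the number of organ tables that list them; each point is 1 circRNA, spread sideways at random, coloured by whether the brain table lists it, and lines are medians. The median falls from 1.14 in the spleen table alone to -0.92 in all 5 tables.

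The signs also differed by which organ lists the circRNA. Of the 225 spleen circRNAs that brain also listed 55 were positive, with a median of -0.90, and among the 83 others 55 were positive, with a median of 0.46. Taking only circRNAs in 2 to 4 tables, 27 of 92 with a brain entry and 31 of 52 without one were positive in the authors' deposited table. With a brain entry the share was 33.3%, 23.8% and 30% in 2, 3 and 4 tables. Without one it was 72.2%, 47.1% and 58.8%. The spleen table alone has no brain entry and all 5 tables always have one. At these ends the number of tables and listing in brain cannot be told apart. The share of positive signs was also lower for circRNAs listed in each other organ. Those counts did not hold the number of tables or the brain entry fixed. In spleen, 54 of 204 circRNAs listed in liver and 56 of 104 not listed there were positive. The counts were 60 of 212 and 50 of 96 for kidney, and 64 of 207 and 46 of 101 for heart. For circRNAs not listed in heart the spleen median stayed negative, at -0.18, against 0.18 for kidney and 0.25 for liver. In brain itself 161 of the 225 shared circRNAs were positive with a median of 0.70, while the whole brain table had 836 of 1856 positive (45.0%) and a median of -0.14. In heart, kidney and liver the shared circRNAs had medians of 0.09, 0.05 and -0.14 in those organs, beside 0.12, 0.20 and -0.22 over the whole tables. The organs come from the same mice, and whether 1 library or the scaling within a table carries these shifts was not tested.

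Differences of the genotype effect between spleen and each other organ were then tested for the 784 pairs with a p-value in both. None (0%) passed an adjusted p of 0.05 (Benjamini-Hochberg on a two-sided normal test of the difference between DESeq2 estimates), and 19 had an unadjusted p below 0.05, or 2.42%. The test treats the organs as independent although they share mice. The smallest p, 0.00421 before adjustment of these DESeq2 estimates, was that of chr2:24703539-24715079, with -4.67 (SE 2.02) in spleen and 3.02 (SE 1.77) in brain, a difference of -7.69 (SE 2.69). Next was chr1:181653187-181659797 against kidney, with 5.18 and -0.81 (SE 1.43). Then came chr12:86307351-86315835 against liver, with 1.03 (SE 1.46) and -5.58 (SE 2.18). Each of these leading pairs holds an estimate at a low mean, 3.08 and 2.97 in spleen and 6.07 in liver. For these estimates the absolute log2 fold change exceeded the log2 of the mean by over 2.5. Among the pairs with brain the spleen value was the lower in 184 of 207, by a median of -1.58, compared with 133 of 193 for heart, 138 of 197 for kidney and 109 of 187 for liver. These are counts over circRNAs of the same libraries and carry no test.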

How the data were processed

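Per the labels' protocols, RNA of frozen spleen was depleted of ribosomal RNA, polyadenylated, digested with RNase R, fragmented and sequenced on a NovaSeq. Per the submitters' processing notes, BWA 0.7.17-r1188, DESeq2 and the build GRCm39 were used, with no roles given; the circRNA caller, the filter on low values, the model formula and the handling of the 2 runs are not stated there or in the labels. If the runs entered as separate samples, the errors would be too small. Per the file headers, each deposited row holds a mean signal (baseMean), a log2 fold change and its SE on the log2 scale, a Wald score, a p-value and an adjusted p-value. The deposited statistic equalled the log2 fold change over its SE, and the deposited p-values equalled its two-sided normal tail, within rounding. The header names no groups, and the table was read as the genotype comparison.

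From these were computed shares, spans (last minus first base, plus 1), loci, 95% intervals (± 1.96 SE) and differences between organs. Python 3.11.15, pandas 2.3.3 and scipy 1.17.1 were used. Only the p-values with their adjustment and the test of differences between organs were tried on simulated data. That simulation drew the organs independently, whereas the real organs share mice. The p-values assume normal statistics although each genotype had 3 mice. Members, lists and the named circRNAs (most abundant, smallest p, no p-value, widest and narrowest, shared loci, spleen alone, chromosome X, smallest SE, largest difference between organs) were chosen with earlier results of these data known, and a subset is printed. The annotation at hand is of GRCm38, another build than that of the files, so no host gene, exon or sequence is given and the 13 host gene lists were not used.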

Additional observations from a re-analysis of the deposited data

How the results depend on the processing

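The count of circRNAs past the adjusted threshold of the authors' DESeq2 test stayed at 0 in each of the 5 alternatives run: an adjusted p below 0.1, a p from its own statistic for every row, a mean of at least 5 or of at least 10, and statistics divided by their SD. The difference between organs also stayed at 0 with a mean of at least 5 in both organs and without rows whose fold change exceeded the log2 of the mean by over 2.5, and, as an alternative chosen after seeing the data, with rows that have no p-value included. The 6 circRNAs at an unadjusted p below 0.05 (4 positive, 2 negative) became 9 (4 and 5) with a p for every row, 2 (1 and 1) at a mean of at least 5, 1 (0 and 1) at a mean of at least 10, 13 (4 and 9) with statistics divided by their SD, and 3 (2 and 1) without those rows. The adjusted p of these 6 ran from 0.1003 to 0.998 over the alternatives to the DESeq2 result. The median log2 fold change of -0.55 was -0.81 at a mean of at least 5, -0.84 at a mean of at least 10, -0.55 without those rows, -0.46 without rows that have no p-value and -0.58 with 1 circRNA per locus, and the mean weighted by 1 over the squared SE was -0.52. The share of the 10 most abundant, 32.7%, was 29.8% without rows that have no p-value, 34.5% by locus and 43.2% at a mean of at least 5. The median span of 3749 bases was 4402 at a mean of at least 5, 3541 with 1 circRNA per locus and 6197 when weighted by the mean. In alternatives chosen after seeing the data, the share of positive signs, 35.7%, was 37.3% without rows that have no p-value, 37.5% without the 20 most abundant and 27.4% at a mean of at least 5. No paired analysis was possible because the columns used here hold 1 summary value per circRNA and none per library, and for the same reason leaving out each mouse and a block by brother group were not run. The cause of these changes was not tested, and the filters also left fewer circRNAs.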
